A study of Homo sapiens with 12 samples.

Results

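The replication-dependent histone genes are the clustered genes that supply the linker histone H1 and the core histones H2A, H2B, H3 and H4 to newly copied DNA. They were taken from the count table as the protein-coding genes named in the HIST1 to HIST4 style, or in the newer style with a class letter and a cluster number, which gave 71 of 58735 genes and of 19951 protein-coding genes. The older style named all of them, and current symbols are given beside the first mention of the genes described in full. There were 6 genes of class H1, 17 of H2A, 18 of H2B, 15 of H3 and 15 of H4. By position, 55 lay in the HIST1 cluster on chromosome 6, 12 in HIST2 and 3 in HIST3 on chromosome 1, and 1, HIST4H4, on chromosome 12.

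RNA came from 2 wild-type hepatocellular carcinoma cell lines, Huh7 and HLF, each in 3 cultures with 2 biological replicates, 12 libraries in all. In Inject-Embed culture, a suspension of 4000 Huh7 or 2000 HLF cells per well was injected into set, diluted Matrigel, a basement membrane extract. In Mix-Embed culture, 20000 Huh7 or 10000 HLF cells per well were mixed with Matrigel and laid on a set layer of it. These 3D cultures were harvested on day 6 to 8, and flat 2D cultures on day 2 at about 90% confluence, all in DMEM with 10% fetal bovine serum. Seeding number, days in culture and the gel differ together between the cultures and cannot be told apart. The labels do not say whether replicates were separate thaws or dishes of 1 culture, so p-values measure the spread between these libraries. Library totals ran from 12325877 to 16041906 counts, and summed hepatocyte markers stood at 36440 to 47490 CPM (the count scaled to library size with TMM factors) in Huh7 and at 1.51 to 13.9 CPM in HLF, where 3 to 6 of the 8 markers had no count in a given library. Fibroblast markers, 5 in the list, summed to 3.23 to 8.78 CPM in Huh7 and 308 to 333 CPM in HLF, so the hepatocyte markers that define the tissue of origin were near 0 in HLF. The 4 endothelial markers summed to 10.04 to 13.3 CPM in Huh7 and 0.504 to 1.71 CPM in HLF, and the 4 leukocyte markers to 0.697 to 2.49 and 3.02 to 7.31 CPM.

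Messenger RNA of these histone genes differs from nearly all other mRNA: it ends in a conserved stem-loop and not in a poly-A tail. Stem-loop binding protein, SLBP, holds this stem-loop, and the U7 ribonucleoprotein with the cleavage factors CPSF2 and CPSF3 cuts just after it. Transcription takes place in the histone locus body under NPAT, an activator switched on by cyclin E and CDK2 at the start of S phase, and the mRNA is destroyed when DNA synthesis ends. Some of these genes can also give longer, polyadenylated transcripts that run past the stem-loop, which is known from differentiated and from slowly dividing cells. The libraries were made from RNA caught on poly-T beads, so transcripts ending at the stem-loop are caught poorly by this method, and the levels below are those of whatever histone RNA the beads retained.

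The stem-loop is shown for the 12 genes with the highest levels, because it is the element that sets these transcripts apart from poly-A mRNA. Each line gives 26 bases of the hg38 genome, 5′ to 3′ on the gene's strand, with the stem-loop of 16 bases in capitals (6 base pairs around a loop of 4). The coordinates are those of the capitals.
HIST1H1C (chr6:26055744-26055759, minus strand): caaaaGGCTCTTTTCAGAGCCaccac
HIST1H2AC (chr6:26124669-26124684, plus strand): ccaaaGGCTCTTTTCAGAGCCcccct
HIST1H2AG (chr6:27133515-27133530, plus strand): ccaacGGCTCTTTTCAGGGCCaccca
HIST3H2A (chr1:228457369-228457384, minus strand): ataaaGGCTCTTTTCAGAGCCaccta
HIST1H2BK (chr6:27146366-27146381, minus strand): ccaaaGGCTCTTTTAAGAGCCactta
HIST1H2BD (chr6:26158587-26158602, plus strand): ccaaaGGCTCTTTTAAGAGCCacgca
HIST2H2BE (chr1:149886188-149886203, minus strand): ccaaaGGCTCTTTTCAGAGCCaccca
HIST1H2BG (chr6:26216218-26216233, minus strand): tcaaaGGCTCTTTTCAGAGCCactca
HIST1H3H (chr6:27810516-27810531, plus strand): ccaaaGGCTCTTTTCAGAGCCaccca
HIST1H3E (chr6:26225596-26225611, plus strand): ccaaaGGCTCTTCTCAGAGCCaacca
HIST1H4I (chr6:27139654-27139669, plus strand): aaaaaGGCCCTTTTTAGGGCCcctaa
HIST1H4H (chr6:26285131-26285146, minus strand): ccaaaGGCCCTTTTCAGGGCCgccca
A histone stem-loop was found within 150 bases after the stop codon of 71 of 71 members, and of 76 of 19924 protein-coding genes in the GENCODE 44 annotation (0.381%), the members included.

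The amount of 3′ sequence in each gene's annotated span varied widely and went along with detection. For 35 members the span in the deposited table ended at the stop codon, and 11 of these passed the filter on low counts. The span ended before the stem-loop in 38 members, of which 13 passed (34.2%), and included it in 33, of which 26 passed (78.8%). Of 24 members whose span ran over 300 bases past the stem-loop, 22 passed (91.7%). The poly-A signal AATAAA stood in the last 50 bases of the span in 17 of the 71 members, against 58.28% of 19909 protein-coding gene ends. Of the 17 members with the signal, 12 passed the filter. The 8 members with no count in any library, HIST1H2AD, HIST1H2AK, HIST1H2AM, HIST1H2BA, HIST1H3D, HIST1H4F, HIST1H4G and HIST2H3PS2, all had spans ending at the stop codon, and 5 of the 8 overlapped another gene, where reads may have been left uncounted. HIST1H2BK and HIST1H1C were among the best detected members although their spans held coding sequence alone.

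**Figure D1:**
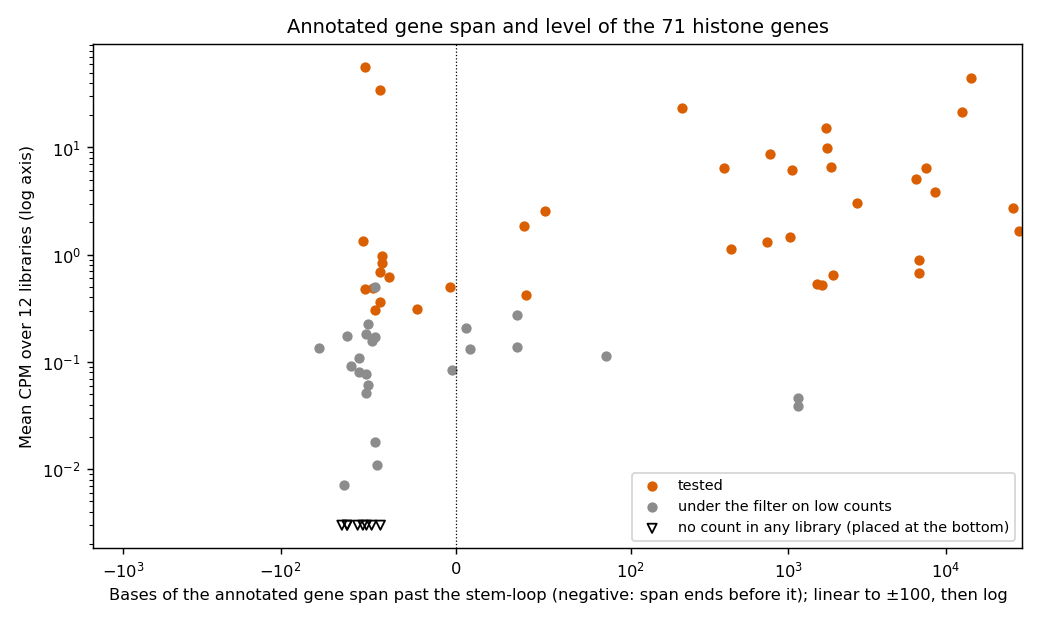
Mean level of each of the 71 histone genes over 12 libraries (CPM, log axis) against the number of bases by which its annotated span runs past the stem-loop (genome distance, introns included). The 8 genes with no count, drawn as triangles at the bottom, all lie left of 0, and 22 of the 24 genes beyond 300 bases are among the 39 tested.

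Of the 71 members, 63 had a count in at least 1 library and 39 passed the filter and were tested among 19342 genes. The other 32 reached at most 12 counts in a library. A gene with counts in only 1 line or culture can pass the filter through that group, so counts over the 39 describe the detected genes and not the family. Library totals and scaling made 3 counts correspond to 0.178 to 0.255 CPM.

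The summed level of the 71 genes was higher in both 3D cultures than in 2D in each line, with the order of the 3D cultures reversed between the lines. Huh7 libraries summed to 214 and 222 CPM in Inject-Embed, 184 and 174 in Mix-Embed and 146 and 150 in 2D. HLF libraries summed to 383 and 365 CPM in Inject-Embed, 498 and 479 in Mix-Embed and 254.9 and 255.04 in 2D. No group overlapped another of its line. As ratios of group means, Huh7 stood at 1.47 in Inject-Embed and 1.21 in Mix-Embed over 2D, and HLF at 1.47 and 1.92 over 2D. In 2D, Huh7 held 0.581 of the HLF level. With 2 libraries a group these sums were not tested. In bulk RNA, fewer cells of a type, such as cells in S phase, and less RNA per cell cannot be told apart.

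**Figure D2:**
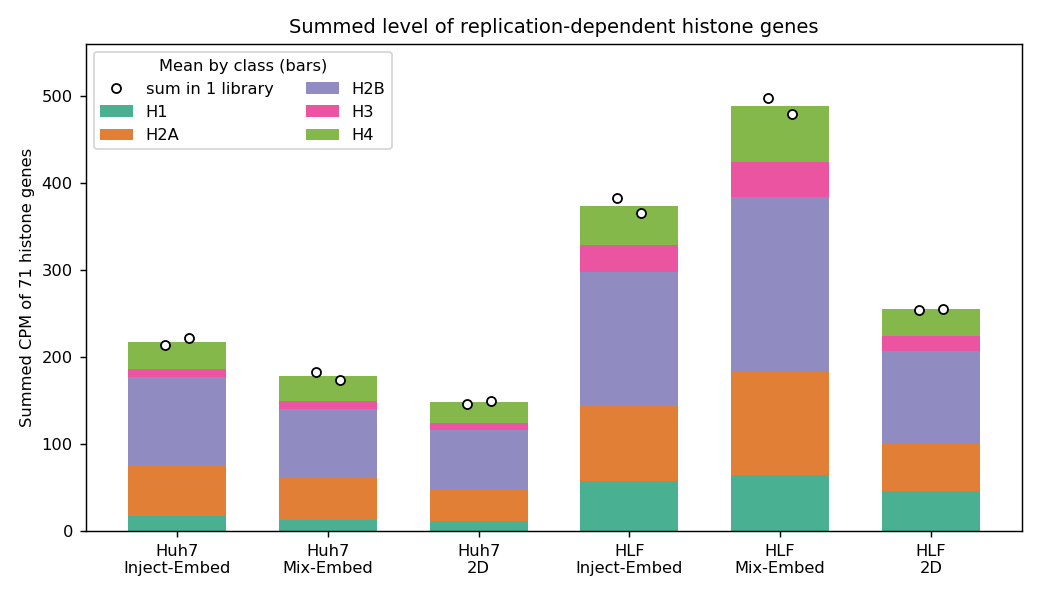
Summed CPM of the 71 histone genes in each group, with bars stacked by the mean of each histone class and open circles for the sum in each of 2 libraries. HLF Mix-Embed stands highest at 498 and 479 CPM, and Huh7 2D lowest at 146 and 150 CPM.

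H2B genes held the largest share of histone counts in each of the 12 libraries, between 40.5% and 47.1%, followed by H2A with 21.3% to 28.0%. The lines differed most in H1, which held 7.23% to 8.54% of histone counts in Huh7 and 13.0% to 19.2% in HLF. H3 genes summed to 32.6 and 29.9 CPM in HLF Inject-Embed, 40.7 and 39.3 in HLF Mix-Embed and 16.2 and 17.2 in HLF 2D, so both 3D cultures stood above 2D. H3 in Huh7 summed to 8.17 and 11.3 CPM in Inject-Embed, 9.54 and 8.87 in Mix-Embed and 8.33 and 8.14 in 2D, and Inject-Embed overlapped 2D. The 12 genes described next held 84.5% to 88.9% of the histone counts of each library. Per length, in deposited FPKM, HIST1H2BK had the highest level of all members in each group, from 113 ± 1.77 in Huh7 2D to 186 ± 0.566 in Huh7 Inject-Embed (SD, n = 2 each), although its length counts the coding sequence alone.

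Ribosomal RNA of mitochondria, which carries at most a short poly-A tail, was also higher in both 3D cultures than in 2D. Summed over MT-RNR1 and MT-RNR2, this RNA stood higher in Mix-Embed than in Inject-Embed in both lines. That is the order of the histone sum in HLF and not that in Huh7. The sum took 0.487% and 0.477% of the counts of the Inject-Embed libraries, 0.543% and 0.504% of Mix-Embed and 0.315% and 0.306% of 2D in Huh7. HLF had 0.477% and 0.468% in Inject-Embed, 0.597% and 0.579% in Mix-Embed and 0.30% and 0.293% in 2D. Of 14 RNAs listed as lacking a long poly-A tail, 11 had at most 2 counts in every library and 3 were tested. MT-RNR1 and MT-RNR2 were called higher in each of the 4 comparisons of a 3D culture with 2D, from 0.23 ± 0.05 (adjusted p = 0.000258) for MT-RNR1 in HLF Inject-Embed to 1.10 ± 0.05 (adjusted p = 9.66e-23) for MT-RNR1 in Huh7 Inject-Embed on the log2 scale with edgeR. RN7SL2, the RNA of the signal recognition particle, was called in none of them, at -0.39 ± 0.25 (adjusted p = 0.27) in HLF Mix-Embed. The order of the sum is not that of each RNA, as the largest of these changes, MT-RNR1 in Huh7, lay in Inject-Embed. In Inject-Embed against Mix-Embed, 0 of the 3 tested RNAs were called higher and 1 lower in Huh7. HLF gave 0 higher and 2 lower. Over all tested genes, 22.9% and 8.27% were called in either direction in these 2 comparisons. The part of RNA capture in the histone results was not tested.

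In HLF, histone genes of all 5 classes were called higher in 3D culture and none was called lower, with class H1 resting on 1 called gene of 3 tested. The log2 change was above 0 for 34 of the 39 tested genes in Inject-Embed and for 36 in Mix-Embed. The 39 include HIST3H2A, HIST3H2BB, HIST1H2BH and HIST1H3G, with at most 3 counts in each HLF group, where the sign says little. The share of all tested genes above 0 was not computed. In Inject-Embed against 2D, 15 of 39 tested histone genes were called higher and 0 lower with edgeR's quasi-likelihood test at a Benjamini-Hochberg adjusted p under 0.05, beside 17.9% of all tested genes called in either direction, 9.09% higher and 8.86% lower. In Mix-Embed against 2D, 23 of 39 were called higher and 0 lower, beside 29% of all genes in either direction, 14.4% higher and 14.6% lower. The median log2 fold change of the 39 was 0.68 in Inject-Embed and 1.20 in Mix-Embed, against 0 and 0.004 over all genes. The 15 called in Inject-Embed were all among the 23 of Mix-Embed, but both comparisons share the 2D libraries. The highest group mean of a gene lay in HLF Mix-Embed for 27 of the 39. The share over all tested genes was not computed, and a gene can pass the filter through its highest group. The count of 27 is therefore a description alone. Scaled by library totals alone, the calls were again 15 and 23, all higher, while the split over all genes moved to 2163 higher and 1252 lower in Inject-Embed and 3434 higher and 2072 lower in Mix-Embed, against 1758 and 1713, and 2789 and 2816, with TMM. At an unadjusted p under 0.05, 20 and 25 of the 39 passed in either direction.

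Cell type markers also moved with culture, in both lines. The hepatocyte markers summed to 7.46 and 7.71 CPM in HLF Inject-Embed, 13.9 and 12.1 in HLF Mix-Embed and 2.23 and 1.51 in HLF 2D, with AFP and SERPINA1, 2 of the 8, called higher in both 3D cultures. The leukocyte markers summed to 4.99 and 3.51 CPM in HLF Inject-Embed, 7.31 and 6.53 in HLF Mix-Embed and 3.22 and 3.02 in HLF 2D, with CD14, the 1 of 4 that was tested, called higher in Mix-Embed and 2 or 3 of the 4 at 0 in each library. Of 5 fibroblast markers, COL3A1, LUM and DCN were called higher in both HLF 3D cultures, COL1A1 lower in both and PDGFRB lower in Inject-Embed. In Huh7 the hepatocyte markers summed to 36440 and 37840 CPM in Inject-Embed, 45430 and 44850 in Mix-Embed and 47490 and 45510 in 2D. Of the 8, 3 were called higher and 4 lower in Inject-Embed against 2D, and 5 higher and 2 lower in Mix-Embed. The fibroblast markers gave 0 higher and 2 lower in Huh7 Inject-Embed and 0 calls in Huh7 Mix-Embed. The part of these markers in the histone results was not tested.

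In Huh7 fewer histone genes were called, all of them higher in 3D with edgeR. In Inject-Embed against 2D, limma on log2(FPKM + 1) and on log2(FPKM + 0.1) each gave 10 higher and 2 lower, HIST1H3B and HIST2H3D. With edgeR, 10 of 39 were called higher and 0 lower in that comparison, beside 29.9% of all tested genes in either direction, 13.2% higher and 16.7% lower, with a median log2 fold change of 0.42 against -0.006 over all genes. In Mix-Embed against 2D, 5 of 39 were called higher and 0 lower, beside 21.7% of all genes in either direction, 11.2% higher and 10.6% lower, with a median of 0.27 against 0. The share called in Mix-Embed was near that over all genes, and it fell to 3 genes with DESeq2, with the compared groups alone or with no filter, and to 2 without Huh7 2D replicate 1 or without Huh7 Mix-Embed replicate 1. Of the 10 genes called in Inject-Embed, 3 rest on 11 to 15 counts over the group and are given with the low counts below.

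**Figure D3:**
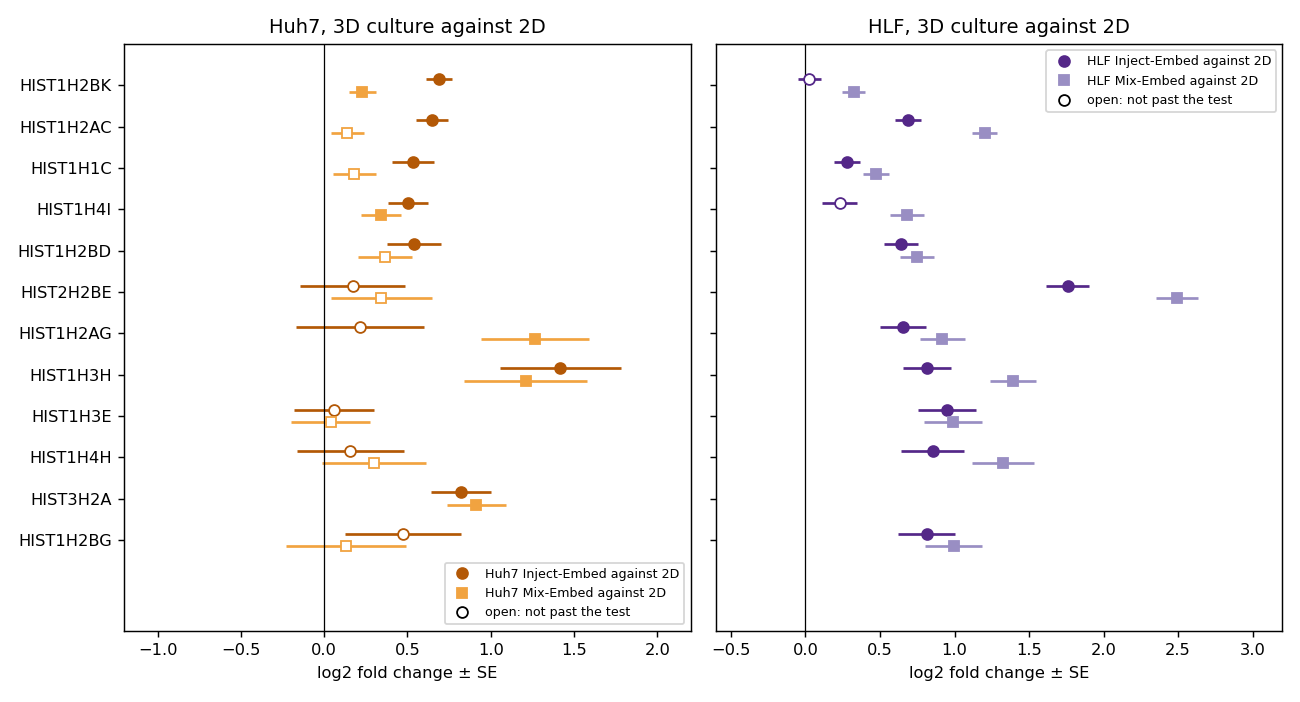
Log2 fold change ± SE of the 12 best detected histone genes in each 3D culture against 2D, in Huh7 (left) and HLF (right), with filled symbols for calls at an adjusted p under 0.05. All filled symbols lie right of 0, and HIST2H2BE in HLF stands farthest out at 1.76 in Inject-Embed and 2.49 in Mix-Embed; HIST3H2A is left out in HLF, where it has at most 1 count.

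The 12 genes follow by class, with their level in CPM in every library and log2 fold changes ± SE from edgeR, with an SE taken as the log2 change over the root of its F value. A call with no loss named beside it held under each alternative that gave it a value.

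HIST1H1C (ENSG00000187837, now H1-2; chr6:26055787-26056428, minus strand) encodes the linker histone H1.2, which sits on the DNA between nucleosomes. HIST1H1C in Huh7 stood at 15.3 and 16.8 CPM in Inject-Embed, 13.2 and 11.9 in Mix-Embed and 11.3 and 10.8 in 2D. HIST1H1C in HLF stood at 58.4 and 52.4 CPM in Inject-Embed, 63.5 and 63.1 in Mix-Embed and 47.6 and 43.5 in 2D. Each 3D library lay above both 2D libraries of its line, and each HLF library above all Huh7 libraries. In HLF the change was 0.28 ± 0.09 (adjusted p = 0.0185) in Inject-Embed and 0.47 ± 0.09 (adjusted p = 2.48e-05) in Mix-Embed. The Inject-Embed call was lost with DESeq2 (adjusted p = 0.0551) and without HLF 2D replicate 2 (adjusted p = 0.22) or HLF Inject-Embed replicate 1 (adjusted p = 0.283). In Huh7 it was 0.53 ± 0.13 (adjusted p = 0.000911) in Inject-Embed, a rise, and 0.18 ± 0.13 (adjusted p = 0.373) in Mix-Embed, which did not pass. Of the other tested H1 genes, HIST1H1E was called only in Huh7 Inject-Embed, on low counts, and HIST1H1B, with at most 15 counts in a library, in no comparison.

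HIST1H2AC (ENSG00000180573, now H2AC6; chr6:26124145-26139116, plus strand) encodes a core histone H2A and had the most counts of the H2A genes. HIST1H2AC in Huh7 stood at 38.9 and 36.4 CPM in Inject-Embed, 27.6 and 25.3 in Mix-Embed and 21.8 and 26.4 in 2D. HIST1H2AC in HLF stood at 58 and 59.1 CPM in Inject-Embed, 85.5 and 81.7 in Mix-Embed and 36.1 and 36.5 in 2D. The HLF cultures were fully separated, with Mix-Embed highest, while in Huh7 only Inject-Embed stood clear of 2D. The change in HLF was 0.69 ± 0.08 (adjusted p = 1.79e-08) in Inject-Embed and 1.20 ± 0.08 (adjusted p = 5.31e-16) in Mix-Embed. In Huh7 it was 0.65 ± 0.10 (adjusted p = 6.29e-07) in Inject-Embed and 0.14 ± 0.10 (adjusted p = 0.371) in Mix-Embed, where it did not pass.

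HIST1H2AG (ENSG00000196787, now H2AC11; chr6:27133042-27135291, plus strand) encodes H2A from the same cluster. HIST1H2AG in Huh7 stood at 1.21 and 1.53 CPM in Inject-Embed, 2.85 and 2.8 in Mix-Embed and 0.533 and 1.82 in 2D. HIST1H2AG in HLF stood at 18.6 and 19.2 CPM in Inject-Embed, 22.7 and 22.7 in Mix-Embed and 11.9 and 12.1 in 2D. All HLF libraries lay above all Huh7 libraries, and the Huh7 2D pair, at 8 and 27 counts, spread around the Inject-Embed pair. It rose by 0.66 ± 0.16 (adjusted p = 0.00152) in HLF Inject-Embed, by 0.92 ± 0.15 (adjusted p = 5.03e-06) in HLF Mix-Embed and by 1.27 ± 0.32 (adjusted p = 0.00285) in Huh7 Mix-Embed. Both HLF calls were lost with limma on log2(FPKM + 0.1) (adjusted p = 0.263 and 0.0827). The Huh7 call was lost without Huh7 2D replicate 1 (adjusted p = 0.228). In Huh7 Inject-Embed the change was 0.22 ± 0.39 (adjusted p = 0.756).

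HIST3H2A (ENSG00000181218, now H2AC25; chr1:228456979-228457873, minus strand) encodes H2A from the small HIST3 cluster and was seen in Huh7 almost alone. HIST3H2A in Huh7 stood at 15.4 and 13.9 CPM in Inject-Embed, 14.6 and 16.6 in Mix-Embed and 8.73 and 7.81 in 2D. Both 3D cultures lay above 2D, with no overlap. The 6 HLF libraries held 1 count between them, in Mix-Embed replicate 2. In Huh7 it rose by 0.82 ± 0.18 (adjusted p = 0.000381) in Inject-Embed and by 0.91 ± 0.18 (adjusted p = 0.000127) in Mix-Embed. In 2D it was at least 88.3-fold higher in Huh7 than in HLF, taking 3 counts over the HLF group as the floor.

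HIST1H2BK (ENSG00000197903, now H2BC12; chr6:27146418-27146798, minus strand) encodes H2B and had the highest mean CPM of the family over the 12 libraries. HIST1H2BK in Huh7 stood at 74.5 and 74.2 CPM in Inject-Embed, 57 and 50.7 in Mix-Embed and 46.4 and 45.6 in 2D. HIST1H2BK in HLF stood at 51.6 and 50.5 CPM in Inject-Embed, 66.3 and 59.6 in Mix-Embed and 51.6 and 48.8 in 2D. Inject-Embed stood highest in Huh7, while in HLF its pair overlapped the 2D pair and Mix-Embed stood highest. In Huh7 it rose by 0.69 ± 0.08 (adjusted p = 1.21e-09) in Inject-Embed and by 0.23 ± 0.08 (adjusted p = 0.0324) in Mix-Embed. The Mix-Embed call was lost with DESeq2 (adjusted p = 0.084), with no filter on low counts (adjusted p = 0.0632), with compared groups alone (adjusted p = 0.0625) and without Huh7 2D replicate 1 (adjusted p = 0.0895), Huh7 2D replicate 2 (adjusted p = 0.115) or Huh7 Mix-Embed replicate 1 (adjusted p = 0.407). In HLF the change was 0.03 ± 0.08 (adjusted p = 0.9) in Inject-Embed, not a call, and 0.32 ± 0.08 (adjusted p = 0.000791) in Mix-Embed.

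HIST1H2BD (ENSG00000158373, now H2BC5; chr6:26158146-26171349, plus strand) encodes H2B, and its span overlaps the genes AL353759.1 and LARP1P1. HIST1H2BD in Huh7 stood at 9.16 and 11.4 CPM in Inject-Embed, 8.22 and 9.96 in Mix-Embed and 7.8 and 6.26 in 2D. HIST1H2BD in HLF stood at 38.2 and 36.9 CPM in Inject-Embed, 39.8 and 41.1 in Mix-Embed and 25.3 and 22.8 in 2D. Each HLF 3D library exceeded both HLF 2D libraries, and the Inject-Embed and Mix-Embed levels were close. It rose by 0.64 ± 0.11 (adjusted p = 2.51e-05) in HLF Inject-Embed, by 0.75 ± 0.11 (adjusted p = 6.98e-07) in HLF Mix-Embed and by 0.54 ± 0.16 (adjusted p = 0.00887) in Huh7 Inject-Embed. The Huh7 call was lost without Huh7 2D replicate 2 (adjusted p = 0.135) or Huh7 Inject-Embed replicate 2 (adjusted p = 0.168). In Huh7 Mix-Embed the change was 0.37 ± 0.16 (adjusted p = 0.113).

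HIST2H2BE (ENSG00000184678, now H2BC21; chr1:149884459-149886652, minus strand) encodes H2B from the HIST2 cluster and showed the largest rise among the 12 genes in HLF. HIST2H2BE in HLF stood at 30.7 and 26.6 CPM in Inject-Embed, 50.1 and 45.3 in Mix-Embed and 8.43 and 8.51 in 2D. HIST2H2BE in Huh7 stood at 1.82 and 2.04 CPM in Inject-Embed, 1.81 and 2.57 in Mix-Embed and 1.2 and 2.22 in 2D. In HLF the cultures were fully separated, and its share of all histone counts was 8.0% and 7.3% in Inject-Embed, 10.1% and 9.5% in Mix-Embed and 3.3% in both 2D libraries. The Huh7 cultures overlapped, at 18 to 33 counts a library. The rise in HLF was 1.76 ± 0.14 (adjusted p = 2.51e-13) in Inject-Embed and 2.49 ± 0.14 (adjusted p = 5.72e-19) in Mix-Embed. In Huh7 the change was 0.17 ± 0.32 (adjusted p = 0.767) in Inject-Embed and 0.34 ± 0.30 (adjusted p = 0.482) in Mix-Embed.

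HIST1H2BG (ENSG00000273802, now H2BC8; chr6:26215159-26216692, minus strand) encodes H2B from the HIST1 cluster. HIST1H2BG in HLF stood at 12.1 and 11.7 CPM in Inject-Embed, 13.8 and 13.2 in Mix-Embed and 5.88 and 7.69 in 2D. HIST1H2BG in Huh7 stood at 2.57 and 1.27 CPM in Inject-Embed, 1.95 and 1.09 in Mix-Embed and 1.6 and 1.21 in 2D. Both HLF 3D pairs lay above 2D, while the 3 Huh7 pairs overlapped. In HLF it rose by 0.81 ± 0.19 (adjusted p = 0.00146) in Inject-Embed and by 0.99 ± 0.19 (adjusted p = 4.85e-05) in Mix-Embed. The Inject-Embed call was lost with limma on log2(FPKM + 0.1) (adjusted p = 0.127) and without HLF 2D replicate 1 (adjusted p = 0.0718). In Huh7 the changes were 0.47 ± 0.35 (adjusted p = 0.346) and 0.13 ± 0.36 (adjusted p = 0.874), in that order.

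HIST1H3H (ENSG00000278828, now H3C10; chr6:27810064-27811300, plus strand) encodes histone H3.1 and was called in all 4 comparisons of a 3D culture with 2D. HIST1H3H in Huh7 stood at 2.12 and 2.21 CPM in Inject-Embed, 2.3 and 1.4 in Mix-Embed and 1.13 and 0.471 in 2D. HIST1H3H in HLF stood at 14.9 and 16.1 CPM in Inject-Embed, 23.8 and 22.4 in Mix-Embed and 8.73 and 8.88 in 2D. The 3 HLF cultures did not overlap, with Mix-Embed highest, and each Huh7 3D library exceeded both 2D libraries. It rose by 1.42 ± 0.37 (adjusted p = 0.00217) in Inject-Embed of Huh7 and 1.21 ± 0.37 (adjusted p = 0.014) in its Mix-Embed culture, on 7 to 33 counts a library. The Huh7 Inject-Embed call was lost without Huh7 2D replicate 2 (adjusted p = 0.086). The Huh7 Mix-Embed call was lost with compared groups alone (adjusted p = 0.0676) and without Huh7 2D replicate 2 (adjusted p = 0.252) or Huh7 Mix-Embed replicate 1 (adjusted p = 0.311). In HLF the rise was 0.82 ± 0.16 (adjusted p = 0.000161) in Inject-Embed and 1.39 ± 0.16 (adjusted p = 1.08e-09) in Mix-Embed. The HLF Inject-Embed call was lost with limma on log2(FPKM + 0.1) (adjusted p = 0.117).

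HIST1H3E (ENSG00000274750, now H3C6; chr6:26224199-26227473, plus strand) also encodes H3.1. HIST1H3E in Huh7 stood at 3.63 and 5.02 CPM in Inject-Embed, 3.9 and 4.59 in Mix-Embed and 3.47 and 4.78 in 2D. HIST1H3E in HLF stood at 11.8 and 8.97 CPM in Inject-Embed, 10.9 and 10.5 in Mix-Embed and 4.89 and 5.86 in 2D. Both HLF 3D pairs lay above 2D and overlapped each other, and the 3 Huh7 pairs overlapped. The rise in HLF was 0.95 ± 0.19 (adjusted p = 0.000266) in Inject-Embed and 0.99 ± 0.19 (adjusted p = 7.38e-05) in Mix-Embed, and the Huh7 changes were 0.06 ± 0.24 (adjusted p = 0.924) and 0.04 ± 0.24 (adjusted p = 0.974) in that order.

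HIST1H4I (ENSG00000276180, now H4C9; chr6:27138588-27139881, plus strand) encodes histone H4 and had the highest level of that class. HIST1H4I in Huh7 stood at 23.4 and 26.9 CPM in Inject-Embed, 21.9 and 23 in Mix-Embed and 16.4 and 19.1 in 2D. HIST1H4I in HLF stood at 23.8 and 22 CPM in Inject-Embed, 32.6 and 30.1 in Mix-Embed and 18.6 and 20.5 in 2D. In both lines each 3D library exceeded both 2D libraries, and the lines overlapped, unlike for most of the 12. It rose by 0.50 ± 0.12 (adjusted p = 0.00101) in Huh7 Inject-Embed, 0.34 ± 0.12 (adjusted p = 0.0357) in Huh7 Mix-Embed and 0.68 ± 0.11 (adjusted p = 4.87e-06) in HLF Mix-Embed. The Huh7 Mix-Embed call was lost with DESeq2 (adjusted p = 0.0778), with no filter on low counts (adjusted p = 0.0646) and without Huh7 2D replicate 1 (adjusted p = 0.333), Huh7 Mix-Embed replicate 1 (adjusted p = 0.0831) or Huh7 Mix-Embed replicate 2 (adjusted p = 0.2). In HLF Inject-Embed the change was 0.23 ± 0.12 (adjusted p = 0.188).

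HIST1H4H (ENSG00000158406, now H4C8; chr6:26277609-26285638, minus strand) encodes the same H4 protein. HIST1H4H in Huh7 stood at 2.12 and 3.23 CPM in Inject-Embed, 3.97 and 1.79 in Mix-Embed and 3 and 1.75 in 2D. HIST1H4H in HLF stood at 11.3 and 9.85 CPM in Inject-Embed, 13.2 and 16 in Mix-Embed and 5.02 and 6.68 in 2D. The HLF cultures were fully separated and the Huh7 cultures overlapped. The rise in HLF was 0.85 ± 0.21 (adjusted p = 0.00281) in Inject-Embed and 1.32 ± 0.21 (adjusted p = 1.6e-06) in Mix-Embed. The Inject-Embed call was lost with limma on log2(FPKM + 1) (adjusted p = 0.0633), with limma on log2(FPKM + 0.1) (adjusted p = 0.161) and without HLF 2D replicate 1 (adjusted p = 0.0956). The Huh7 changes were 0.16 ± 0.32 (adjusted p = 0.796) and 0.30 ± 0.31 (adjusted p = 0.566) in that order.

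**Figure D4:**
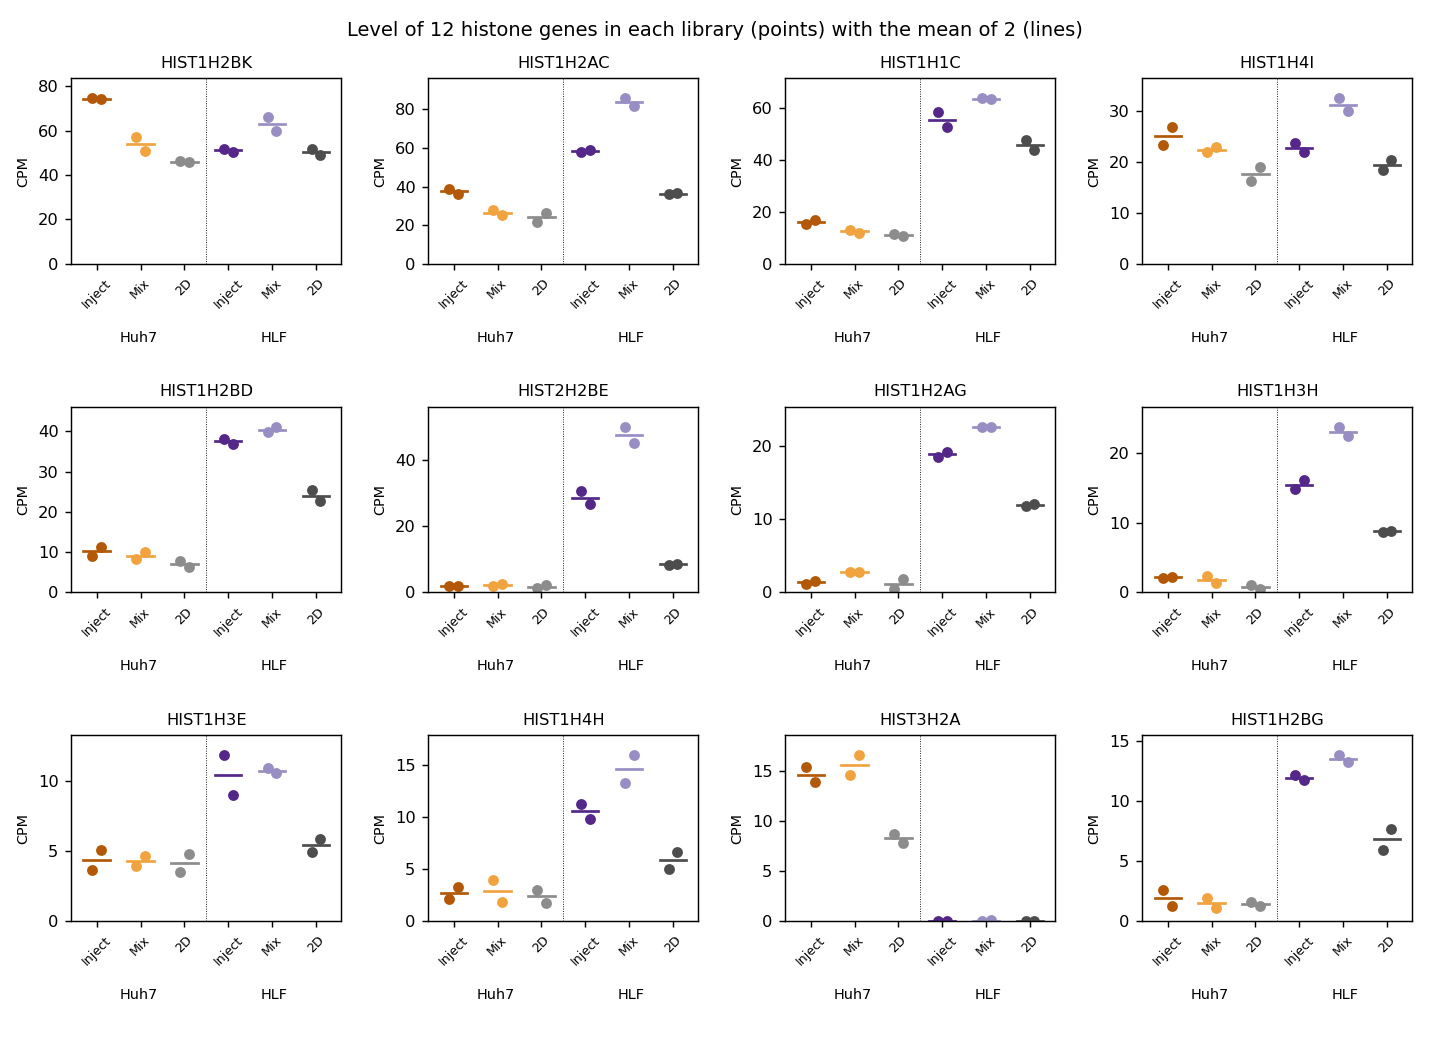
CPM of the 12 best detected histone genes, with a point for each library and a line for the mean of 2, in Inject-Embed, Mix-Embed and 2D of Huh7 and of HLF, each panel on its own axis from 0. HLF Mix-Embed is the highest group in all panels but those of HIST1H2BK and HIST3H2A, and HIST2H2BE stands at 50.1 and 45.3 CPM in HLF Mix-Embed against 1.81 and 2.57 CPM in Huh7 Mix-Embed.

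Of the 27 tested genes not given in full, 16 had a mean under 1 CPM. Among those with a mean of at least 1 CPM, 4 rose in HLF Inject-Embed, by 1.21 to 1.68 on the log2 scale: HIST1H2AE, HIST1H2BF, HIST1H3B and HIST1H4E. In HLF Mix-Embed 9 rose, by 1.26 to 2.52: these 4 with HIST1H2AI, HIST1H2BC, HIST1H2BE, HIST2H2BF and HIST4H4. HIST1H4E held 28 and 49 counts in Inject-Embed, 74 and 73 in Mix-Embed and 8 and 18 in 2D in HLF, and its Mix-Embed change of 2.52 ± 0.42 (adjusted p = 6.02e-06) was the largest of the 9. HIST1H2BJ, another H2B gene, with 52 to 122 counts in each library, was called in no comparison, with changes of 0.06 ± 0.21 (adjusted p = 0.923) in HLF Inject-Embed and 0.28 ± 0.21 (adjusted p = 0.352) in HLF Mix-Embed. In HLF Inject-Embed, the call of HIST1H2BF was lost without HLF 2D replicate 1 (adjusted p = 0.0865) or HLF Inject-Embed replicate 1 (adjusted p = 0.0679). In the same comparison, that of HIST1H3B was lost with DESeq2 (adjusted p = 0.0927), with limma on log2(FPKM + 0.1) (adjusted p = 0.107) and without HLF 2D replicate 2 (adjusted p = 0.232) or HLF Inject-Embed replicate 1 (adjusted p = 0.281). For HIST1H4E there, the call was lost with limma on log2(FPKM + 0.1) (adjusted p = 0.0893) and without HLF 2D replicate 1 (adjusted p = 0.189) or HLF Inject-Embed replicate 2 (adjusted p = 0.199). In HLF Mix-Embed, the call of HIST1H2AI was lost with limma on log2(FPKM + 0.1) (adjusted p = 0.379) and without HLF 2D replicate 1 (adjusted p = 0.0761) or HLF Mix-Embed replicate 2 (adjusted p = 0.0526). There, that of HIST1H2BC was lost with DESeq2 (adjusted p = 0.0955) and with limma on log2(FPKM + 0.1) (adjusted p = 0.174). HIST1H2BE is a further case: its Mix-Embed call was lost without HLF 2D replicate 2 (adjusted p = 0.0795) or HLF Mix-Embed replicate 2 (adjusted p = 0.064). For HIST1H3B, the Mix-Embed call was lost without HLF 2D replicate 2 (adjusted p = 0.0571).

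The remaining calls against 2D rest on few counts or on near-identical copies. HIST2H4A and HIST2H4B have identical coding sequences, as do HIST1H4J and HIST1H4K, HIST2H2AA3 and HIST2H2AA4, and HIST2H3A and HIST2H3C, 8 members in all, so reads may be shared or dropped between them. HIST2H4A held 15 and 76 counts in HLF Mix-Embed and 7 and 5 in HLF 2D, and HIST2H4B held 46 and 8 in HLF Mix-Embed and 5 and 1 in HLF 2D: each copy was high in a different library. The Mix-Embed call of HIST2H4A was lost without HLF Mix-Embed replicate 2 (adjusted p = 0.31). The Mix-Embed call of HIST2H4B was lost with limma on log2(FPKM + 1) (adjusted p = 0.123), with limma on log2(FPKM + 0.1) (adjusted p = 0.0979) and without HLF Mix-Embed replicate 1 (adjusted p = 0.424). In HLF Inject-Embed, HIST2H4B held 21 and 42 counts. That call was lost with limma on log2(FPKM + 1) (adjusted p = 0.0993), with limma on log2(FPKM + 0.1) (adjusted p = 0.0736) and without HLF 2D replicate 2 (adjusted p = 0.0513). HIST2H3D held 6 and 15 counts in HLF Inject-Embed, 10 and 9 in HLF Mix-Embed and 1 and 0 in HLF 2D, ratios of 21.4 (95% counting interval 3.45 to 886) and 19.3 (3.07 to 803) over 2D. Its Inject-Embed call was lost without HLF 2D replicate 2 (adjusted p = 0.11) or HLF Inject-Embed replicate 2 (adjusted p = 0.15). Its Mix-Embed call was lost without HLF 2D replicate 2 (adjusted p = 0.0917).

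In Huh7 Inject-Embed against 2D, HIST1H4K held 5 and 8 counts against 0 and 1, a ratio of 15.5 (95% counting interval 2.33 to 660). HIST1H1E held 9 and 6 counts against 2 and 1, a ratio of 5.98 (1.69 to 32.2). HIST1H4C held 8 and 3 counts against 0 and 0, at least 4.38-fold higher by the floor of 3 counts over the group. The call of HIST1H4K was lost without Huh7 2D replicate 1 (adjusted p = 0.144) or Huh7 Inject-Embed replicate 2 (adjusted p = 0.12). The call of HIST1H1E was lost without Huh7 2D replicate 1 (adjusted p = 0.103), Huh7 2D replicate 2 (adjusted p = 0.196), Huh7 Inject-Embed replicate 1 (adjusted p = 0.185) or Huh7 Inject-Embed replicate 2 (adjusted p = 0.0683). The call of HIST1H4C was lost without Huh7 2D replicate 1 (adjusted p = 0.0754), Huh7 2D replicate 2 (adjusted p = 0.0675) or Huh7 Inject-Embed replicate 1 (adjusted p = 0.119). The intervals cover counting error alone.

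The histone genes called between the 3D cultures were all lower in Inject-Embed in HLF, and were split in Huh7. Whether this contrast differs between the lines was not tested. In HLF Inject-Embed against Mix-Embed, 0 of 39 histone genes were called higher and 7 lower, beside 8.27% of all tested genes in either direction, 3.56% higher and 4.71% lower, with a median log2 fold change of -0.35 against 0. HIST2H2BE fell by 0.74 ± 0.12 (adjusted p = 2.29e-05), HIST1H3H by 0.58 ± 0.15 (adjusted p = 0.00774), HIST1H2AC by 0.51 ± 0.08 (adjusted p = 6.17e-06), HIST1H4I by 0.45 ± 0.11 (adjusted p = 0.00548) and HIST1H2BK by 0.30 ± 0.08 (adjusted p = 0.00729) in Inject-Embed relative to Mix-Embed, and HIST2H2BF and HIST2H4A were also lower. The HIST1H3H call was lost with limma on log2(FPKM + 1) (adjusted p = 0.0797), with limma on log2(FPKM + 0.1) (adjusted p = 0.373) and without HLF Inject-Embed replicate 1 (adjusted p = 0.106) or HLF Mix-Embed replicate 1 (adjusted p = 0.082). The HIST1H2BK call was lost without HLF Inject-Embed replicate 2 (adjusted p = 0.0848) or HLF Mix-Embed replicate 1 (adjusted p = 0.152). The HIST1H4I call was lost without HLF Inject-Embed replicate 2 (adjusted p = 0.101) or HLF Mix-Embed replicate 1 (adjusted p = 0.073). The HIST2H2BE call was lost with limma on log2(FPKM + 0.1) (adjusted p = 0.134). The HIST2H2BF call was lost without HLF Inject-Embed replicate 2 (adjusted p = 0.0786) or HLF Mix-Embed replicate 2 (adjusted p = 0.0618). The HIST2H4A call was lost with limma on log2(FPKM + 1) (adjusted p = 0.11), with limma on log2(FPKM + 0.1) (adjusted p = 0.136) and without HLF Inject-Embed replicate 1 (adjusted p = 0.0885) or HLF Mix-Embed replicate 2 (adjusted p = 0.613).

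In Huh7 Inject-Embed against Mix-Embed, 3 of 39 were called higher and 2 lower, beside 22.9% of all tested genes in either direction, 9.55% higher and 13.4% lower, so the shares were no larger than over all genes. Scaled by library totals alone, the counts were again 3 and 2 while all genes gave 2393 higher and 2132 lower, against 1848 and 2587 with TMM. HIST1H2AC was higher by 0.51 ± 0.10 (adjusted p = 6.79e-05), HIST1H2BK by 0.46 ± 0.08 (adjusted p = 8.67e-06) and HIST1H1C by 0.35 ± 0.13 (adjusted p = 0.0368). HIST1H2AG was lower, at -1.05 ± 0.33 (adjusted p = 0.0151), and HIST1H3B held 0 and 1 counts in Inject-Embed against 7 and 6 in Mix-Embed, a ratio of 0.0838 (95% counting interval 0.00197 to 0.558). The HIST1H1C call was lost with no filter on low counts (adjusted p = 0.0929) and without Huh7 Inject-Embed replicate 1 (adjusted p = 0.0521), Huh7 Inject-Embed replicate 2 (adjusted p = 0.227), Huh7 Mix-Embed replicate 1 (adjusted p = 0.062) or Huh7 Mix-Embed replicate 2 (adjusted p = 0.223). The HIST1H2AG call was lost with limma on log2(FPKM + 0.1) (adjusted p = 0.115) and without Huh7 Inject-Embed replicate 1 (adjusted p = 0.149), Huh7 Mix-Embed replicate 1 (adjusted p = 0.0705) or Huh7 Mix-Embed replicate 2 (adjusted p = 0.0554). The HIST1H3B call was lost with DESeq2 (adjusted p = 0.0777) and without Huh7 Inject-Embed replicate 1 (adjusted p = 0.205), Huh7 Mix-Embed replicate 1 (adjusted p = 0.0683) or Huh7 Mix-Embed replicate 2 (adjusted p = 0.0543).

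In 2D culture, 18 of the 39 tested histone genes were called lower in Huh7 than in HLF, beside 39.2% of all tested genes called lower. Called higher were 5 of the 39, beside 38.1% of all tested genes. The median log2 fold change of the 39 was -1.30, against -0.024 over all genes. Because 77.2% of all genes were called between the lines in either direction, the count of histone calls is no larger than the background, and the values carry the description. HIST1H3H stood at -3.44 ± 0.27 (adjusted p = 2.05e-15), HIST1H2AG at -3.35 ± 0.25 (adjusted p = 2.14e-16), HIST2H2BE at -2.30 ± 0.23 (adjusted p = 1.79e-12), HIST1H2BG at -2.26 ± 0.27 (adjusted p = 4.54e-10) and HIST1H1C at -2.04 ± 0.11 (adjusted p = 2.24e-21), all lower in Huh7. HIST1H2BD at -1.77 ± 0.14 (adjusted p = 2.54e-15), HIST1H4H at -1.30 ± 0.27 (adjusted p = 3.64e-05) and HIST1H2AC at -0.59 ± 0.09 (adjusted p = 2.87e-07) were lower too. HIST1H2BK, HIST1H4I and HIST1H3E did not pass, at -0.13 ± 0.08 (adjusted p = 0.141), -0.14 ± 0.12 (adjusted p = 0.289) and -0.38 ± 0.22 (adjusted p = 0.114). Library totals alone put the median of all genes at -0.18 and that of the histone genes at -1.45, with 5 higher and 24 lower.

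The 5 genes higher in Huh7 2D include HIST3H2A and its neighbour HIST3H2BB, whose starts lie 234 bases apart on opposite strands. HIST3H2BB, an H2B gene, held 14 and 22 counts in Huh7 2D against 0 and 0 in HLF 2D, at least 12.9-fold higher, and HIST1H2BH, also H2B, 21 and 18 against 0 and 0, at least 13.9-fold higher. HIST1H3G held 15 and 10 counts against 0 and 1, a ratio of 26.8 (95% counting interval 4.39 to 1.1e+03), and HIST2H3D 10 and 7 against 1 and 0, a ratio of 18.2 (2.86 to 762). Both are H3 genes. In the other direction, HIST1H4C held 0 and 0 counts in Huh7 2D against 4 and 12 in HLF 2D, at least 4.97-fold lower. HIST1H4K held 0 and 1 against 14 and 5, a ratio of 0.0564 (0.00136 to 0.355). The HIST1H4K call was lost without HLF 2D replicate 1 (adjusted p = 0.0705). HIST1H2BC, HIST1H2BE, HIST1H2BF, HIST1H2BN, HIST1H2AI, HIST1H3B, HIST1H4E and HIST2H2BF were lower in Huh7, at -0.97 to -2.83 on the log2 scale. The HIST1H2BE call was lost without Huh7 2D replicate 1 (adjusted p = 0.082) or HLF 2D replicate 1 (adjusted p = 0.105). The HIST1H2BF call was lost without Huh7 2D replicate 2 (adjusted p = 0.166) or HLF 2D replicate 2 (adjusted p = 0.151). The HIST1H4E call was lost without Huh7 2D replicate 1 (adjusted p = 0.0809) or HLF 2D replicate 2 (adjusted p = 0.182). The HIST2H2BF call was lost without Huh7 2D replicate 2 (adjusted p = 0.14).

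The difference between the lines in their 3D response was tested directly, as the Huh7 change minus the HLF change. For Mix-Embed against 2D, 0 of 39 histone genes had a higher response in Huh7 and 8 a lower one. Over all genes the shares were 20.4% in either direction and 10.2% in each. The share of the 39 in either direction, 20.5%, was therefore near the background, while all 8 calls lay on 1 side. The median difference was -0.84 against -0.002. Library totals alone again gave 0 and 8, with 1457 higher and 2466 lower over all genes, against 1968 and 1976 with TMM. HIST2H2BE differed by -2.15 ± 0.34 (adjusted p = 4.69e-06), HIST1H2AC by -1.06 ± 0.13 (adjusted p = 1.46e-08), HIST1H4H by -1.03 ± 0.38 (adjusted p = 0.0461) and HIST1H3E by -0.95 ± 0.31 (adjusted p = 0.0211). The HIST1H4H call was lost with DESeq2 (adjusted p = 0.0846), with limma on log2(FPKM + 0.1) (adjusted p = 0.156) and without Huh7 2D replicate 1 (adjusted p = 0.451), Huh7 Mix-Embed replicate 2 (adjusted p = 0.349), HLF 2D replicate 1 (adjusted p = 0.171) or HLF Mix-Embed replicate 2 (adjusted p = 0.139). The HIST1H3E call was lost with DESeq2 (adjusted p = 0.0536), with limma on log2(FPKM + 0.1) (adjusted p = 0.0528) and without Huh7 2D replicate 2 (adjusted p = 0.176), Huh7 Mix-Embed replicate 1 (adjusted p = 0.103) or HLF 2D replicate 1 (adjusted p = 0.096). The other 4 were HIST1H2AE, HIST1H2BF, HIST2H3D and HIST2H4B. The HIST1H2AE call was lost without Huh7 2D replicate 2 (adjusted p = 0.0715), Huh7 Mix-Embed replicate 2 (adjusted p = 0.0948) or HLF 2D replicate 2 (adjusted p = 0.087). The HIST1H2BF call was lost without Huh7 2D replicate 1 (adjusted p = 0.37), Huh7 Mix-Embed replicate 1 (adjusted p = 0.0829), Huh7 Mix-Embed replicate 2 (adjusted p = 0.0647), HLF 2D replicate 1 (adjusted p = 0.073) or HLF Mix-Embed replicate 2 (adjusted p = 0.0618). The HIST2H4B call was lost with limma on log2(FPKM + 1) (adjusted p = 0.238), with limma on log2(FPKM + 0.1) (adjusted p = 0.217) and without Huh7 2D replicate 1 (adjusted p = 0.497), Huh7 Mix-Embed replicate 2 (adjusted p = 0.0952), HLF 2D replicate 2 (adjusted p = 0.126) or HLF Mix-Embed replicate 1 (adjusted p = 0.469).

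For Inject-Embed against 2D, 2 of 39 had a higher response in Huh7 and 6 a lower one, beside 24.8% of all genes in either direction, 11.7% higher and 13.1% lower, shares close to the background, with a median of -0.14 against -0.037. HIST1H2BK responded more in Huh7, with a difference of 0.67 ± 0.11 (adjusted p = 5.63e-06). HIST2H2BE responded less, at -1.59 ± 0.35 (adjusted p = 0.000483), as did HIST1H3E, at -0.89 ± 0.31 (adjusted p = 0.0292). The HIST2H2BE call was lost without Huh7 2D replicate 2 (adjusted p = 0.0864). The HIST1H3E call was lost with DESeq2 (adjusted p = 0.074), with limma on log2(FPKM + 0.1) (adjusted p = 0.0691) and without Huh7 2D replicate 2 (adjusted p = 0.215), Huh7 Inject-Embed replicate 1 (adjusted p = 0.188), HLF 2D replicate 1 (adjusted p = 0.118) or HLF Inject-Embed replicate 1 (adjusted p = 0.188). HIST1H2BE, HIST1H3B, HIST1H4C, HIST2H3D and HIST2H4B were called on low counts. The HIST1H2BE call was lost without Huh7 2D replicate 1 (adjusted p = 0.0566), Huh7 2D replicate 2 (adjusted p = 0.0994), Huh7 Inject-Embed replicate 1 (adjusted p = 0.118), Huh7 Inject-Embed replicate 2 (adjusted p = 0.0901), HLF 2D replicate 2 (adjusted p = 0.0745) or HLF Inject-Embed replicate 2 (adjusted p = 0.0754). The HIST1H3B call was lost without Huh7 2D replicate 2 (adjusted p = 0.0566) or Huh7 Inject-Embed replicate 1 (adjusted p = 0.112). The HIST1H4C call was lost without Huh7 Inject-Embed replicate 1 (adjusted p = 0.0722) or HLF 2D replicate 2 (adjusted p = 0.0723). The HIST2H4B call was lost with limma on log2(FPKM + 1) (adjusted p = 0.105), with limma on log2(FPKM + 0.1) (adjusted p = 0.0709) and without Huh7 2D replicate 1 (adjusted p = 0.197).

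Histone genes often lie head to head, sharing the space between their starts, and 12 such pairs had starts under 1000 bases apart. Both genes were tested in 7 pairs, and pairs differed in whether both genes were called. HIST3H2A and HIST3H2BB, above, were both near 0 in HLF, but in Huh7 3D culture only HIST3H2A was called, with HIST3H2BB at -0.00 ± 0.56 (adjusted p = 1) in Inject-Embed. HIST1H2AC and HIST1H2BC, 219 bases apart, both rose in HLF Mix-Embed, by 1.20 ± 0.08 (adjusted p = 5.31e-16) and 1.33 ± 0.26 (adjusted p = 8.98e-05). HIST1H2AE and HIST1H2BG, 283 bases apart, both rose there too, by 1.91 ± 0.30 (adjusted p = 1.6e-06) and 0.99 ± 0.19 (adjusted p = 4.85e-05). HIST2H2BE stood 323 bases from HIST2H2AC, an H2A gene with 4 to 24 counts a library that was called in no comparison, at -0.40 ± 0.66 (adjusted p = 0.724) in HLF Mix-Embed. HIST1H2AG rose in HLF Mix-Embed while HIST1H2BJ, 292 bases away, did not pass. HIST1H2BK and HIST1H2AI were likewise called there, but their partners HIST1H2AH, 331 bases away, and HIST1H2BL, 268 bases away, were called in no comparison, on at most 10 and 13 counts a library.

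The promoters of HIST2H2BE, HIST1H3H and HIST3H2A are shown because these genes stand for the largest HLF rise among the 12, a rise in both lines and a level seen almost only in Huh7. Sequences are from RefSeq on GRCh38.p14, 250 bases before to 50 after the annotated start, 5′ to 3′ on the gene's strand. Capitals mark 3 motifs searched on both strands: the octamer ATTTGCAT, bound by POU2F1, CCAAT, bound by NF-Y, and TATAAA, bound by the TATA-binding protein.
HIST2H2BE (chr1:149886633-149886932, minus strand): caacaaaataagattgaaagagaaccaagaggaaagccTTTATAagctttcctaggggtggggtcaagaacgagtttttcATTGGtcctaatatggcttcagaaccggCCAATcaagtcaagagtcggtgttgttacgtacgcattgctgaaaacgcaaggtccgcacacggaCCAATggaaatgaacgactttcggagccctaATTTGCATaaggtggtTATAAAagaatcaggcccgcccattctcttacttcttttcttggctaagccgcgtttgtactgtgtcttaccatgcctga
HIST1H3H (chr6:27809801-27810100, plus strand): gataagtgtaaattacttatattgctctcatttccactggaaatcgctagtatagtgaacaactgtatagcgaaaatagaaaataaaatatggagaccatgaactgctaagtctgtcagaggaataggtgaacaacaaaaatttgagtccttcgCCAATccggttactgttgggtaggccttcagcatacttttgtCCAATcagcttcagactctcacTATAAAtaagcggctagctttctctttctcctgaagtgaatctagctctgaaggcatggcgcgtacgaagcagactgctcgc
HIST3H2A (chr1:228457824-228458123, minus strand): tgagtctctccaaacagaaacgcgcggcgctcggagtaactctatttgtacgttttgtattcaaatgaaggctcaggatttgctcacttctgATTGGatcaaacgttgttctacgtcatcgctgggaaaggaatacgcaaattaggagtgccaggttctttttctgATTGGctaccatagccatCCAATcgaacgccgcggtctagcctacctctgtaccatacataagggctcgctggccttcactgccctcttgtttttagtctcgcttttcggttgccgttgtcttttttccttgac
The promoter of HIST2H2BE held all 3 motifs, that of HIST1H3H held CCAAT and TATAAA, and that of HIST3H2A held CCAAT alone. Of 66 histone promoters matched, 39.39% held the octamer, against 1.8% of 27305 RefSeq promoters of the same length. The octamer stood in 14 of 18 H2B, 11 of 16 H2A and 1 of 13 H3 promoters and in 0 of 6 H1 and 0 of 13 H4 promoters. CCAAT stood in 84.85% against 35.7% of all promoters, but in only 3 of 13 H4 promoters, and TATAAA in 66.67% against 11.95%. None of the 3 motifs contains another, though TATAAA on opposite strands can overlap itself. A match is a description of these letters, not evidence of binding.

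Genes of DNA replication, with which histone synthesis is normally coupled, were called lower in HLF 3D culture. Of 27 listed G1/S and DNA replication genes, 0 were called higher and 17 lower in HLF Inject-Embed against 2D, and 0 higher and 26 lower in HLF Mix-Embed, beside 8.86% and 14.6% of all genes called lower, with medians of -0.21 and -0.38 on the log2 scale. In Mix-Embed, CDC6, which loads the replicative helicase, stood at -0.65 ± 0.06 (adjusted p = 2.21e-11), MCM2, a helicase subunit, at -0.44 ± 0.06 (adjusted p = 2.06e-08), PCNA, the polymerase clamp, at -0.33 ± 0.05 (adjusted p = 2.92e-07) and TK1, which makes thymidine phosphate, at -0.56 ± 0.05 (adjusted p = 8.75e-12). POLA1, the catalytic subunit of DNA polymerase alpha, did not pass, at -0.09 ± 0.06 (adjusted p = 0.313). Of 10 listed G2/M genes, 0 were higher and 4 lower in HLF Inject-Embed and 0 higher and 10 lower in HLF Mix-Embed, beside the same shares, MKI67 at -0.26 ± 0.04 (adjusted p = 3.96e-06) in the second. In Huh7, 11 of the 27 replication genes were called higher and 2 lower in Inject-Embed, and 10 higher and 1 lower in Mix-Embed, beside 29.9% and 21.7% of all genes called in either direction, CDT1 at 0.96 ± 0.07 (adjusted p = 1.77e-14) and MCM5 at 0.38 ± 0.05 (adjusted p = 3.17e-07) in Mix-Embed. The G2/M genes in Huh7 gave 2 higher and 2 lower in Inject-Embed and 0 higher and 5 lower in Mix-Embed, beside those shares. These comparisons within a line share their 2D libraries with those of the histone genes.

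**Figure D5:**
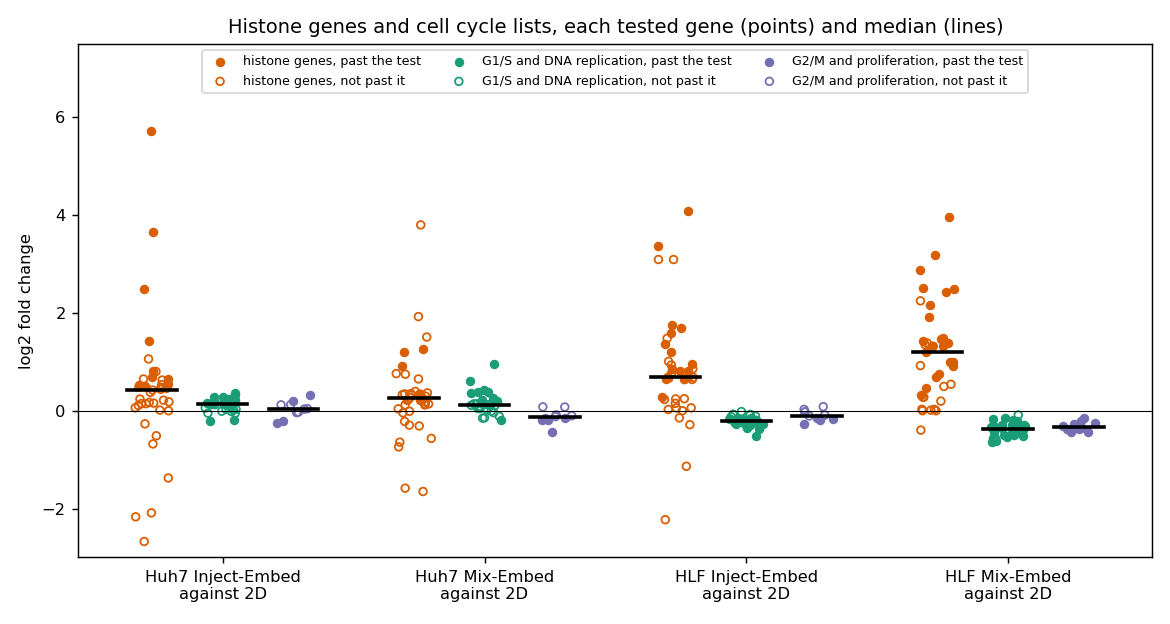
Log2 fold change against 2D of the 39 tested histone genes, 27 G1/S and DNA replication genes and 10 G2/M genes in each 3D culture, with a point per gene, filled where called, and a line for the median. In HLF Mix-Embed the histone median is 1.20 while the medians of the lists are -0.38 and -0.33; histone points beyond 3 rest on few counts or on near-identical copies.

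For the lists that follow, the shares of all genes called in either direction were 17.9% in HLF Inject-Embed, 29% in HLF Mix-Embed, 29.9% in Huh7 Inject-Embed and 21.7% in Huh7 Mix-Embed, each against 2D. Counts of a few genes near these shares say nothing about a list, and the values of single genes carry the description. Among 9 genes of histone transcription and the histone locus body, 0 were higher and 2 lower in HLF Inject-Embed and 0 higher and 4 lower in HLF Mix-Embed. E2F1, a driver of S-phase genes, stood at -0.49 ± 0.07 (adjusted p = 3.67e-07), COIL, the Cajal body scaffold, at -0.36 ± 0.08 (adjusted p = 0.000223), CDK2 at -0.26 ± 0.07 (adjusted p = 0.00352) and POU2F1 at -0.23 ± 0.07 (adjusted p = 0.00471) in HLF Mix-Embed. In Huh7, 2 were higher and 1 lower in Inject-Embed and 3 higher and 1 lower in Mix-Embed, with CCNE1, cyclin E1, at 0.63 ± 0.12 (adjusted p = 5.44e-05) and 0.77 ± 0.12 (adjusted p = 2.59e-06) in that order. POU2F1 was the gene called lower in both. NPAT was called in no comparison of cultures, at -0.13 ± 0.12 (adjusted p = 0.446) in Huh7 Inject-Embed and -0.06 ± 0.10 (adjusted p = 0.708) in HLF Mix-Embed, and was lower in Huh7 than in HLF in 2D, at -1.07 ± 0.10 (adjusted p = 2.05e-12).

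Among 11 genes of 3′ end processing, 0 were higher and 1 lower in HLF Inject-Embed and 0 higher and 4 lower in HLF Mix-Embed, beside 17.9% and 29% of all genes called. SLBP stood at -0.34 ± 0.06 (adjusted p = 6.62e-06) and LSM11, a U7 core subunit, at -0.56 ± 0.14 (adjusted p = 0.0019) in HLF Mix-Embed. In Huh7, 3 were higher and 1 lower in Inject-Embed, SLBP at 0.28 ± 0.06 (adjusted p = 0.000504), and 1 higher and 2 lower in Mix-Embed, LSM11 at 0.61 ± 0.15 (adjusted p = 0.00128). The SLBP response differed between the lines by 0.41 ± 0.08 (adjusted p = 0.000182) for Inject-Embed and 0.49 ± 0.08 (adjusted p = 1.84e-05) for Mix-Embed, Huh7 minus HLF. Of 6 genes of histone mRNA translation and decay, 2 were lower in each HLF comparison, beside 17.9% and 29% of all genes called. ERI1, the exonuclease that trims the stem-loop, stood at -0.55 ± 0.08 (adjusted p = 3.19e-07) and UPF1, a helicase of mRNA decay, at -0.37 ± 0.06 (adjusted p = 8.28e-07) in HLF Mix-Embed. In Huh7, 2 of the 6 were higher in Inject-Embed, ERI1 at 0.22 ± 0.06 (adjusted p = 0.00343) and UPF1 at 0.13 ± 0.05 (adjusted p = 0.05), just under the threshold before rounding, and 0 in Mix-Embed.

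Of 16 histone chaperones, which carry histones to DNA, 1 was higher and 9 lower in HLF Inject-Embed, and 2 higher and 9 lower in HLF Mix-Embed, beside 17.9% and 29% of all genes called. CHAF1B, of the CAF-1 complex that loads new H3 and H4 behind the fork, stood at -0.37 ± 0.08 (adjusted p = 0.000107) and ASF1B, its partner, at -0.42 ± 0.07 (adjusted p = 3.52e-06) in HLF Mix-Embed, while ATRX was higher at 0.26 ± 0.05 (adjusted p = 0.000152). In Huh7 the chaperones gave 2 higher and 5 lower in Inject-Embed and 2 higher and 4 lower in Mix-Embed, beside 29.9% and 21.7%.

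The replication-independent variants, most of whose mRNAs carry an ordinary poly-A tail, had calls in both directions. Of 11, 2 were higher and 1 lower in HLF Inject-Embed and 3 higher and 2 lower in HLF Mix-Embed, beside 17.9% and 29% of all genes called. H3-3B, which encodes H3.3, stood at 0.26 ± 0.04 (adjusted p = 5.29e-06) and H2AJ at 0.20 ± 0.07 (adjusted p = 0.0339), both higher, while H2AZ1, which encodes H2A.Z, was lower at -0.62 ± 0.05 (adjusted p = 4.6e-15) in HLF Mix-Embed. In Huh7, 2 were higher and 4 lower in Inject-Embed and 3 higher and 1 lower in Mix-Embed, beside 29.9% and 21.7%. H2AX stood at 0.17 ± 0.06 (adjusted p = 0.0203) and 0.19 ± 0.06 (adjusted p = 0.0123) for Inject-Embed and for Mix-Embed, both in Huh7.

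Calls went along with annotated span in both HLF 3D cultures, while Huh7 Inject-Embed and Huh7 Mix-Embed differed from each other on few calls. In HLF Mix-Embed against 2D, 19 of the 26 tested genes whose span includes the stem-loop were called higher, with a median log2 fold change of 1.33, and 4 of the 13 whose span ends before it, with a median of 0.47, beside 14.4% of all genes called higher. In HLF Inject-Embed, 12 of the 26 (median 0.815) and 3 of the 13 (median 0.281) were called, beside 9.09% of all genes called higher. In Huh7 Inject-Embed, 5 of the 26 (median 0.40) and 5 of the 13 (median 0.46) were called, beside 13.2% of all genes called higher. In Huh7 Mix-Embed, 4 of the 26 (median 0.284) and 1 of the 13 (median 0.229) were called, beside 11.2% of all genes called higher. The genes of longer span also had higher levels, with a median of 1.67 CPM over the 33 against 0.146 CPM over the 38, so length and level went together and were not separated.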

How the data were processed

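Raw counts and FPKM per gene, deposited by the authors, cover 12 libraries of poly-A RNA, 2 for each of 6 groups of cell line and culture. Per the submitters' processing notes, FastQC, Trimmomatic, STAR 2.7.9a and featureCounts were used with GRCh38/hg38. How strand and multimapped reads were handled, and which annotation was used, is not given in the sources used here: none was assumed. The deposited FPKM equalled count per length and library total within a relative 1e-06 for 167453 of 167453 values checked, those with at least 20 counts.

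Counts were tested with edgeR 4.0.16 in R 4.3.3 by the quasi-likelihood test, with 1 mean per group over all 12 libraries, TMM scaling, a filter on low counts (filterByExpr, minimum 10) and Benjamini-Hochberg adjustment over 19342 genes. A gene was called at an adjusted p under 0.05. CPM is the count scaled by the tested total times its TMM factor. The biological coefficient of variation was 4.59%, with 6 residual degrees of freedom. Alternatives were DESeq2 1.42.0, its size factors, library totals, no filter, the compared groups alone, a replicate block, limma 3.58.1 on log2(FPKM + 1) and log2(FPKM + 0.1), and each library left out. The fits were first tested on simulated data.

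Members with a mean of at least 1 CPM or a call were to be named, the 12 of highest mean CPM in full. Members and lists were chosen with earlier results of these data known. The values of 1 listed histone variant are not reported here, and counts over its list include it. Stem-loops were read from the hg38 genome with GENCODE 44 and promoters from RefSeq, which matched 66 of 71 members. The SE of a log2 fold change was its size over the square root of F. Counting intervals are exact, at 95%, and the floor of 3 counts is over the group.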

Additional observations from a re-analysis of the deposited data

Results flagged for a closer look

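The 3D response of 16 gene and culture combinations differed between the lines by the interaction test, given as the Huh7 minus the HLF log2 change against 2D. In Inject-Embed, the well-counted cases were HIST2H2BE at -1.59, HIST1H3E at -0.89 and HIST1H2BK at 0.67, the last higher in Huh7. HIST1H3B at -3.88 and HIST1H2BE at -3.03 have 1 and 2 counts in Huh7 Inject-Embed. HIST2H3D at -6.26 has 3 counts in Huh7 Inject-Embed and 1 in HLF 2D, and HIST1H4C at 6.85 has 0 in Huh7 2D. Both are fitted values that rest on these low groups, so they are no bounds. HIST2H4B at -4.74 shares its coding sequence with HIST2H4A.

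In Mix-Embed, HIST2H2BE stood at -2.15, HIST1H2AC at -1.06, HIST1H4H at -1.03 and HIST1H3E at -0.95. HIST1H2AE stood at -1.64 and HIST1H2BF at -3.07, HIST2H3D at -5.54 on 1 count in HLF 2D, and HIST2H4B at -3.5 with the same shared coding sequence. The calls that did not hold under an alternative are named with each gene in the results.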

How the results depend on the processing

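Of 104 gene results with a call, 52 stayed past the threshold under each alternative that gave them a value. Some alternatives gave none for genes with few counts. Of 1281 alternative values, 1135 kept their side, 146 fell short and 0 changed direction. In the comparisons below, except where stated, the count of called histone genes moved by more than 1.5 times under at least 1 alternative. The ranges given with a library left out also hold smaller moves. The cause was not tested. In Huh7 Mix-Embed against 2D, 5 became 3 with DESeq2, with the compared groups alone and with no filter, and 2 to 4 with a library left out. In Huh7 Inject-Embed against 2D the total stayed within that limit, but 10 higher and 0 lower became 10 and 2 with limma at either pseudocount. In Huh7 Inject-Embed against Mix-Embed, 5 became 2 to 4 with a library left out, 2 without Huh7 Inject-Embed replicate 1 or Huh7 Mix-Embed replicate 1. In HLF Inject-Embed against 2D, 15 became 8 with limma on log2(FPKM + 0.1) and 11 to 13 with a library left out. In HLF Inject-Embed against Mix-Embed, 7 became 4 with limma on log2(FPKM + 0.1) and 4 to 5 with a library left out. The line difference in the Inject-Embed response, 8, became 3 with DESeq2 and 4 to 7 with a library left out, and that in the Mix-Embed response, 8, became 3 with DESeq2, 15 with limma on log2(FPKM + 1) and 5 to 8 with a library left out. Without a library the remaining one of its group is assumed to vary like the other groups.

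Over all genes, HLF Inject-Embed against Mix-Embed gave 689 higher and 911 lower with edgeR, 328 and 654 with limma at a pseudocount of 1, and 242 and 428 at 0.1, and 258 to 378 higher and 498 to 668 lower with a library left out. HLF Inject-Embed against 2D gave 1158 to 1222 higher and 1038 to 1135 lower with a library left out and 910 lower at the pseudocount of 0.1, 1055 at 1, against 1758 and 1713. HLF Mix-Embed against 2D gave 1681 lower at 0.1 and 1871 at 1, against 2816. Huh7 Mix-Embed against 2D gave 1381 and 1452 without Huh7 2D replicate 1 and 1376 and 1320 without Huh7 Mix-Embed replicate 2, against 2157 and 2046. With the replicate number as a block, the counts of called histone genes were the same as without it, 10, 5, 5, 15, 23, 7, 23, 8 and 8 over the 9 comparisons. Differences between replicates correlated at -0.024 to 0.022 between groups, so no effect shared by same-numbered libraries was seen. These correlations cannot tell whether same-numbered libraries were made together. The 32 histone genes that were not tested reached at most 12 counts in a library, and the part of depth in this was not tested.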
